A study of Saccharomyces cerevisiae with 6 samples.

Results

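The genes described here are 41 DNA repair and checkpoint genes of *Saccharomyces cerevisiae*, out of 6256 genes on the array. They were chosen by name, from a list of excision repair (11 genes), postreplication repair (4), recombination (12), mismatch repair (5) and checkpoint (9) genes, and all 41 were found. The list was drawn up with earlier results of these data known. Their mRNA was compared between 2 xylose-fermenting strains, 3 one-colour Agilent arrays each, at 9 h of oxygen-limited fermentation of 50 g/L xylose. Both strains were built in the haploid auxotrophic host YPH499 (MATa ade2 his3 leu2 lys2 trp1 ura3), and in both *GRE3*, an aldose reductase gene, was deleted, *XKS1*, the xylulokinase gene, was overexpressed from the *TDH3* promoter, and the xylose isomerase gene *xylA* of *Orpinomyces* sp. was integrated in several copies at δ sequences. YΔG/XK/XI, the control, carried nothing further. In YΔGP/XK/XI the phosphatase gene *PHO13* was also replaced with KanMX, a G418 resistance cassette. Each genotype was 1 constructed strain. The labels give replicate numbers and no more, so the p-values measure the spread between these arrays, which may be technical.

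DNA repair genes act in several routes. Nucleotide excision repair cuts out a stretch around a bulky or ultraviolet lesion, postreplication repair lets a replication fork pass damage, homologous recombination restores broken DNA from a sister copy, and mismatch repair removes replication errors. The checkpoint is a kinase cascade: sensors load at single-stranded DNA, Mec1 is activated there, Rad53 is phosphorylated through adaptors, and Dun1 passes the signal on to nucleotide synthesis. Several genes of replication, recombination and mismatch repair are also known as cell cycle genes whose mRNA peaks between G1 and S phase.

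*PHO13* was well above background on 3 of 3 YΔG/XK/XI arrays and on 0 of 3 YΔGP/XK/XI arrays, at least 82.4-fold higher in YΔG/XK/XI. *GRE3* was well above background on 0 of 6 arrays. The *XKS1* level fell from 4.61 in YΔG/XK/XI to 4.16 in YΔGP/XK/XI (log2 scale, adjusted p = 0.0112). The arrays were of similar quality, with 94.3% to 97.0% of genes well above background and no gene spot saturated. Correlations were 0.995 or more within a strain against 0.984 to 0.988 between strains. Replicates 1 and 2 of each strain shared slide 1, and replicate 3 of each was on slide 2.

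All 41 genes were well above background on all 6 arrays. With limma, 10 of the 41 rose in YΔGP/XK/XI and 7 fell at an adjusted p under 0.05, and 24 did not pass. Over all genes, 29.6% were called, 16.5% higher and 13.1% lower. Among the 41 genes 41.5% were called, 24.4% higher and 17.1% lower, and these shares were not tested against the rest of the array. The split depended on scaling: 10 higher and 7 lower with the 75th percentile of each array, 7 and 8 with the median, and 7 and 10 with quantile normalization. The changes were small. None reached 2-fold and 5 passed 1.5-fold (*RAD10*, *RAD59*, *SGS1*, *PMS1* and *RAD53*). The median log2 fold change was 0.016, beside 0.00916 over all genes. The strains were separate, with no overlap of their arrays, in 22 genes, which was 53.7% of the 41 and 46.6% of all genes. Of the 1852 genes called on the array 1843 did not overlap, so for a called gene this is no further evidence. *RAD53*, *RAD24* and *MMS22* are also among the cell cycle genes that the study picked from these same arrays, so their direction is not independent evidence.

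**Figure D1:**
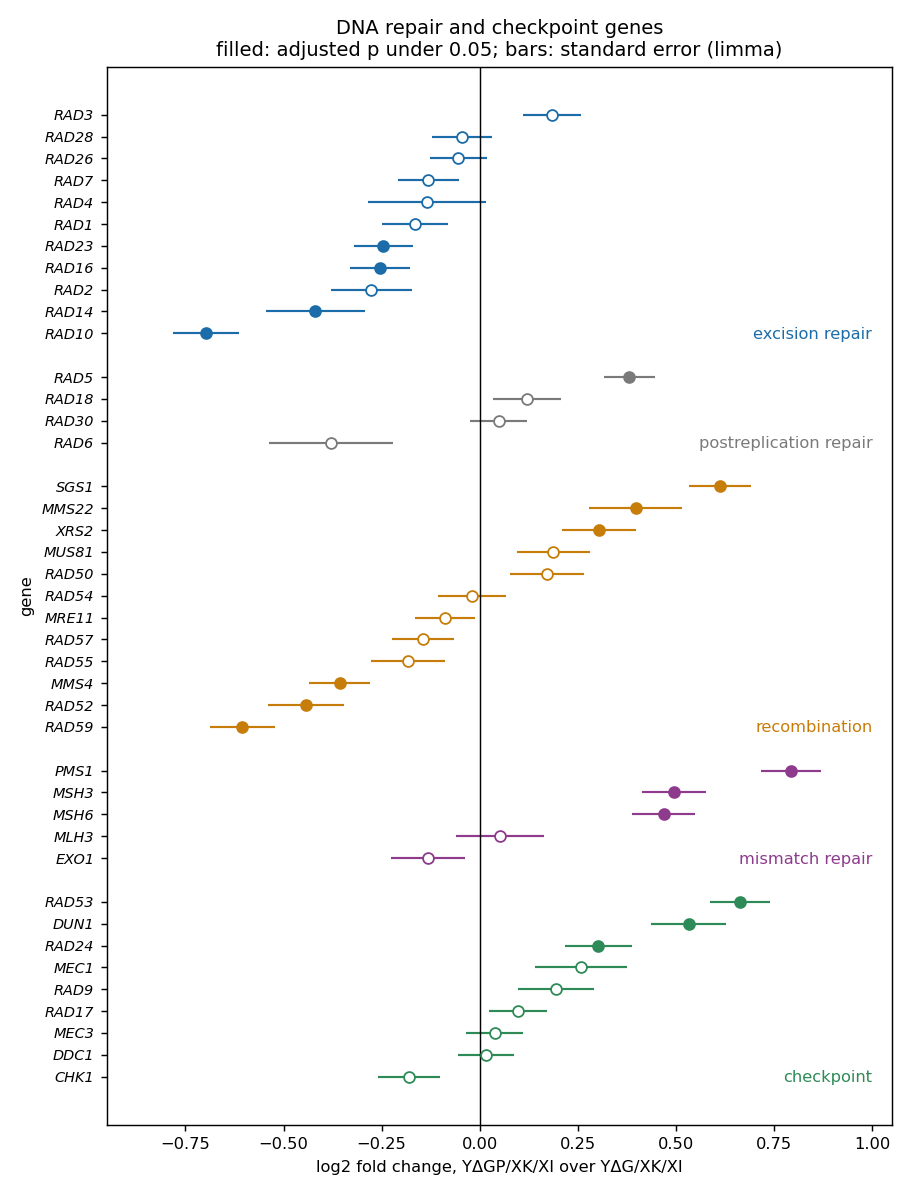
Log2 fold change (YΔGP/XK/XI over YΔG/XK/XI) of the 41 genes by class, as points with the limma standard error, filled where the adjusted p was under 0.05. Changes ran from -0.70 for *RAD10* to 0.79 for *PMS1*. Called higher were 0 of the 11 excision repair genes and 3 of the 5 mismatch repair genes, beside 16.5% of all genes.

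Excision repair genes lay mostly below zero. Of 11 genes 10 had a negative log2 fold change, 4 fell past the test and 0 rose, and the median was -0.16 (-0.22 with median scaling). Of all 6256 genes 3043 had a negative value, and 13.1% were called lower. The count of 4 became 1 without moderation of the variance. It was also 1 without YΔG/XK/XI replicate 1, without YΔGP/XK/XI replicate 1 and without YΔGP/XK/XI replicate 2. Levels here and below are log2 signals relative to the 75th percentile of the array, listed in the order of replicates. *RAD10* encodes the non-catalytic partner of the Rad1 nuclease, which cuts on one side of the lesion. Its levels were -1.80, -1.67 and -1.69 in YΔG/XK/XI and -2.42, -2.54 and -2.30 in YΔGP/XK/XI. The groups were well apart, and the mRNA was 1.62-fold lower in YΔGP/XK/XI (log2 fold change -0.70, SE 0.0847, adjusted p = 0.000698). *RAD1* itself had a change of -0.16 (adjusted p = 0.171). Rad14 binds damaged DNA. The *RAD14* levels were 0.22, 0.19 and 0.51 in YΔG/XK/XI and -0.09, -0.33 and 0.07 in YΔGP/XK/XI, without overlap (log2 fold change -0.42, SE 0.126, adjusted p = 0.0372). The call was lost in 4 of the 6 fits that left out 1 array (adjusted p 0.0681 to 0.0964).

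Repair of DNA that is not being transcribed needs Rad7 and Rad16, and Rad4 with Rad23 recognises the lesion. *RAD16* was at 1.62, 1.67 and 1.55 in YΔG/XK/XI and 1.39, 1.27 and 1.42 in YΔGP/XK/XI. *RAD23* was at 1.43, 1.46 and 1.29 in YΔG/XK/XI and 1.15, 1.11 and 1.19 in YΔGP/XK/XI. Neither gene overlapped between the strains, and the decreases were alike in size (*RAD16* log2 fold change -0.25, SE 0.0761, adjusted p = 0.0370, and *RAD23* log2 fold change -0.25, SE 0.0759, adjusted p = 0.0412). Both were larger on slide 1 (-0.32 for each) than on slide 2 (-0.13 for *RAD16*, -0.10 for *RAD23*). Each lost its call in 5 of the 6 fits without 1 array, with adjusted p of 0.0537 to 0.112 for *RAD16* and 0.0721 to 0.135 for *RAD23*. Their partners had values of -0.13 for *RAD7* (adjusted p = 0.234) and -0.13 for *RAD4* (adjusted p = 0.531). The remaining genes did not pass. They were *RAD2* (-0.28, adjusted p = 0.0768), the nuclease on the other side of the lesion, and *RAD26* (-0.055, adjusted p = 0.605), which acts where transcription is blocked. The others were *RAD28* (-0.046, adjusted p = 0.681) and *RAD3* (0.18, adjusted p = 0.0977), a helicase of the TFIIH complex and the 1 gene with a positive value. The *RAD2* and *RAD3* arrays did not overlap between strains. A slide block brought *RAD2* past the test (adjusted p = 0.0131).

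In postreplication repair 1 of 4 genes rose. *RAD5* encodes the helicase and ubiquitin ligase of the error-free route. Its levels were -1.24, -1.21 and -1.23 in YΔG/XK/XI and -0.87, -0.82 and -0.85 in YΔGP/XK/XI. Replicates differed little, and the mRNA was 1.30-fold higher (log2 fold change 0.38, SE 0.0650, adjusted p = 0.00357). *RAD6*, the ubiquitin-conjugating enzyme gene, was at 0.42, 0.46 and 0.80 in YΔG/XK/XI and 0.33, -0.16 and 0.37 in YΔGP/XK/XI. The groups did not overlap, but *RAD6* had the largest SE of the 41 genes and did not pass (log2 fold change -0.38, SE 0.158, adjusted p = 0.105). Its partner *RAD18* (0.12, adjusted p = 0.318) and the translesion polymerase gene *RAD30* (0.048, adjusted p = 0.643) did not pass either.

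Mismatch repair had the highest class median, 0.47 (0.41 with median scaling and 0.39 with quantile normalization), with 3 of 5 genes higher and 0 lower under each of these 3 scalings. On the whole array 16.5% of genes were called higher. *PMS1*, whose protein is the main MutL-type endonuclease subunit, changed most of all 41 genes. Its levels were -2.77, -2.74 and -2.79 in YΔG/XK/XI and -1.89, -2.08 and -1.95 in YΔGP/XK/XI. The lowest YΔGP/XK/XI array was above the highest YΔG/XK/XI array, and the mRNA was 1.73-fold higher (log2 fold change 0.79, SE 0.0766, adjusted p = 0.000219). Msh6 recognises base mismatches and Msh3 recognises small loops. *MSH6* was at -2.42, -2.47 and -2.41 in YΔG/XK/XI and -1.84, -2.07 and -1.99 in YΔGP/XK/XI (log2 fold change 0.47, SE 0.0803, adjusted p = 0.00363). *MSH3* was at -3.86, -3.66 and -3.70 in YΔG/XK/XI and -3.23, -3.32 and -3.19 in YΔGP/XK/XI (log2 fold change 0.49, SE 0.0813, adjusted p = 0.00297). Both recognition genes rose, again without overlap, and their log2 fold changes were 0.03 apart. *MLH3* (0.052, adjusted p = 0.752), the MutL homologue used mainly in meiosis, and *EXO1* (-0.13, adjusted p = 0.315), the exonuclease of the excision step, did not pass.

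**Figure D2:**
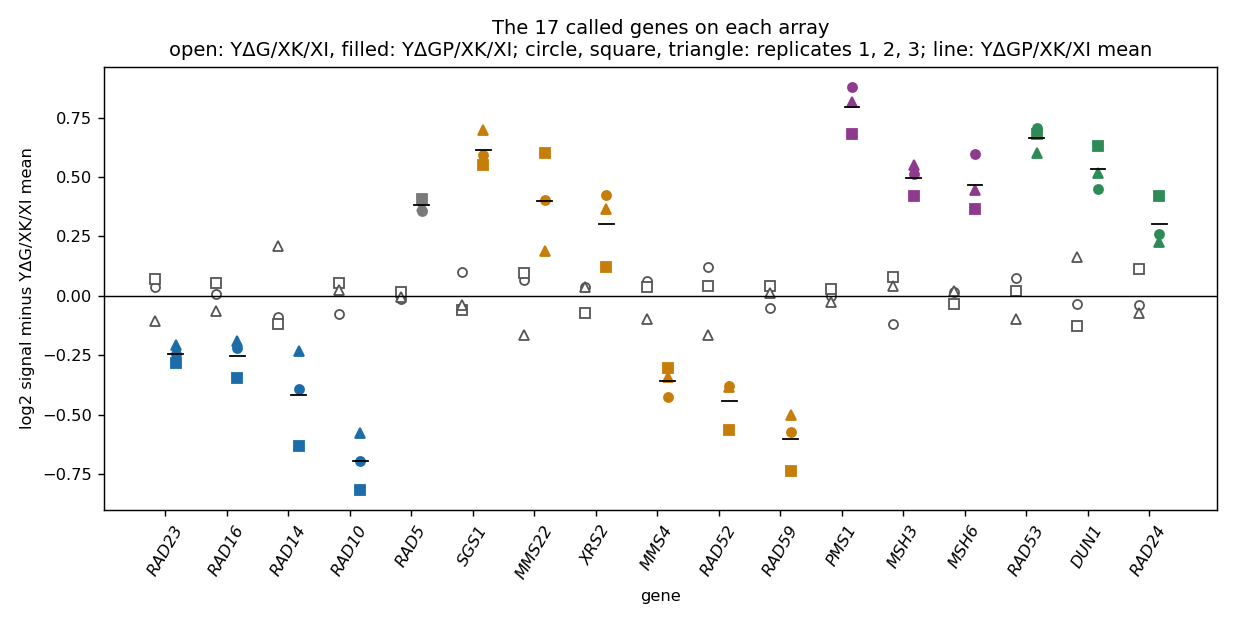
Level of each of the 17 called genes on each array (log2, relative to the 75th percentile of the array), 3 arrays per strain, with the YΔG/XK/XI mean set to 0. The strains do not overlap in any of the 17, nor in 1843 of the 1852 genes called on the whole array. The difference between strain means is largest for *PMS1* (0.79) and smallest for *RAD23* (-0.25).

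Recombination genes were split, with 3 of 12 higher, 3 lower and a median of -0.05 (-0.11 with median scaling). The lower genes act at strand annealing and joint cleavage. Rad52 anneals single strands and loads the recombinase, and Rad59 is its paralogue. *RAD59* was at 0.74, 0.83 and 0.80 in YΔG/XK/XI and 0.22, 0.05 and 0.29 in YΔGP/XK/XI. *RAD52* was at -1.36, -1.44 and -1.65 in YΔG/XK/XI and -1.87, -2.05 and -1.87 in YΔGP/XK/XI. Both fell without overlap (*RAD59* log2 fold change -0.60, SE 0.0828, adjusted p = 0.00124, and *RAD52* log2 fold change -0.44, SE 0.0974, adjusted p = 0.0110). For *RAD52* the change was -0.56 on slide 1 and -0.22 on slide 2. *MMS4*, the regulatory subunit of the Mus81 nuclease, was at -2.88, -2.90 and -3.04 in YΔG/XK/XI and -3.37, -3.24 and -3.28 in YΔGP/XK/XI and was 1.28-fold lower (log2 fold change -0.36, SE 0.0770, adjusted p = 0.0101). *MUS81*, the catalytic subunit, had the opposite sign and did not pass (0.19, adjusted p = 0.162).

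The higher recombination genes were *SGS1*, *MMS22* and *XRS2*. *SGS1* encodes a RecQ-family helicase that dissolves joint molecules. Its levels were -0.94, -1.10 and -1.08 in YΔG/XK/XI and -0.45, -0.49 and -0.34 in YΔGP/XK/XI, which is 1.53-fold higher (log2 fold change 0.61, SE 0.0790, adjusted p = 0.000925). *MMS22*, a subunit of a ubiquitin ligase needed at damaged forks, was at -2.83, -2.80 and -3.07 in YΔG/XK/XI and -2.50, -2.30 and -2.71 in YΔGP/XK/XI (log2 fold change 0.40, SE 0.119, adjusted p = 0.0370). *XRS2*, a subunit of the nuclease complex that binds broken ends, was at -4.02, -4.12 and -4.02 in YΔG/XK/XI and -3.63, -3.93 and -3.69 in YΔGP/XK/XI (log2 fold change 0.30, SE 0.0938, adjusted p = 0.0409). The gap between strains was wide for *SGS1* and narrow for *MMS22* and *XRS2*. The latter calls were lost under median scaling (adjusted p = 0.0603 and 0.0745) and quantile normalization (0.0821 and 0.105), and each in 5 of the 6 fits without 1 array (0.0550 to 0.101 for *MMS22*, 0.0660 to 0.132 for *XRS2*). The other subunits of the *XRS2* complex did not pass, *RAD50* (0.17, adjusted p = 0.198) and *MRE11* (-0.090, adjusted p = 0.406). Nor did the chromatin remodeller gene *RAD54* (-0.019, adjusted p = 0.883) or the genes of the recombinase mediator pair, *RAD55* (-0.18, adjusted p = 0.173) and *RAD57* (-0.15, adjusted p = 0.198).

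Checkpoint genes were mostly above zero. Of 9 genes 8 had a positive value (*MEC3* and *DDC1* changed sign in at least 1 alternative), 3 rose and 0 fell. The median was 0.19 (0.13 with median scaling and 0.15 with quantile normalization). Of all 6256 genes 3213 had a positive value, and 16.5% were called higher. *RAD53*, the central effector kinase, was at -4.40, -4.46 and -4.57 in YΔG/XK/XI and -3.77, -3.80 and -3.88 in YΔGP/XK/XI. The groups were clearly separate, and the mRNA was 1.58-fold higher (log2 fold change 0.66, SE 0.0764, adjusted p = 0.000529). *DUN1*, the kinase downstream of Rad53, was at -3.31, -3.40 and -3.11 in YΔG/XK/XI and -2.82, -2.64 and -2.76 in YΔGP/XK/XI (log2 fold change 0.53, SE 0.0953, adjusted p = 0.00439), with a change of 0.62 on slide 1 and 0.35 on slide 2. *RAD24*, which loads the checkpoint clamp, was at -1.57, -1.42 and -1.61 in YΔG/XK/XI and -1.27, -1.11 and -1.31 in YΔGP/XK/XI (log2 fold change 0.30, SE 0.0858, adjusted p = 0.0302). The *RAD24* groups stood close together, and its call was lost under median scaling (adjusted p = 0.0623) and quantile normalization (0.0544) and in 4 of the 6 fits without 1 array (0.0629 to 0.102). The clamp itself did not pass in any subunit: *RAD17* (0.098, adjusted p = 0.349), *MEC3* (0.038, adjusted p = 0.722) and *DDC1* (0.016, adjusted p = 0.882). The sensor kinase gene *MEC1* (0.26, adjusted p = 0.134), the adaptor gene *RAD9* (0.19, adjusted p = 0.162) and the second effector kinase gene *CHK1* (-0.18, adjusted p = 0.121) did not pass, and *CHK1* was the 1 checkpoint gene with a negative value.

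Direction was also compared by slide. All 17 called genes, and 40 of the 41 genes, had the same sign on both slides. In 22 of the 41 genes, the 17 called ones among them, the arrays did not overlap between strains. For these the sign had to be the same on both slides, so it is no further evidence. Fitted with a slide block, 10 genes were called higher and 9 lower, and all 17 calls were kept. The 2 added were *RAD2* and *RAD6*.

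Other genes of the same routes were taken from lists written with earlier results known. In 19 further excision and direct repair genes 1 rose (*OGG1*, an 8-oxoguanine glycosylase, 0.66, adjusted p = 0.000335) and 1 fell (*RAD34*, a homologue of *RAD4*, -0.30, adjusted p = 0.0153), with a median of -0.06. In 6 further postreplication genes 2 rose, the helicase gene *SRS2* (0.37, adjusted p = 0.00529) and the polymerase zeta gene *REV3* (0.36, adjusted p = 0.00869), 0 fell, and the median was 0.21. In 26 further recombination and end joining genes 5 rose and 3 fell, around a median of -0.0014. The 3 with the largest increases were *RTT107*, a scaffold at damaged forks (0.64, adjusted p = 0.00124), *RFA3*, a subunit of the single-strand binding complex (0.59, adjusted p = 0.00420), and *RDH54*, a homologue of *RAD54* (0.57, adjusted p = 0.00126). Those that fell were *LIF1* (-0.34, adjusted p = 0.0161), a ligase partner in end joining, *SAE2* (-0.34, adjusted p = 0.00902), which helps trim broken ends, and *CSM2* (-0.33, adjusted p = 0.0193). In 8 further checkpoint genes 4 rose and 0 fell, and the median was 0.20. *TOF1* had the largest change of these (2.15-fold higher, adjusted p = 4.84e-05), followed by *MRC1* (log2 fold change 0.34, adjusted p = 0.0149) and *DPB11* (0.27, adjusted p = 0.0432). Tof1 and Mrc1 travel with the replication fork, and Dpb11 acts in the start of replication and in Mec1 activation. Of these 8 genes 3 were among those the study picked from these arrays. Over the 59 genes of the 4 lists 12 rose and 4 fell (20.3% and 6.78%), beside 16.5% and 13.1% of all genes, with a median of 0.02. Called in either direction were 27.1% of the 59 and 29.6% of all genes.

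A list of checkpoint output genes was also examined, by mRNA only. The ribonucleotide reductase gene *RNR1* was placed in the list of G1/S genes below and not in this one. The count therefore depends on how the lists were drawn. Of 7 output genes 1 rose, the ribonucleotide reductase gene *RNR2* (0.48, adjusted p = 0.00515), and 0 fell (median 0.08). The other 6, named after their values were seen, did not pass. They were *RNR4* (0.32, adjusted p = 0.0576), *SML1* (0.09, adjusted p = 0.344), *RFX1* (0.08, adjusted p = 0.596), *DIN7* (-0.05, adjusted p = 0.684), *RNR3* and *HUG1*. The strongly damage-induced genes *RNR3* and *HUG1* had values of -0.17 (adjusted p = 0.0910) and 0.00 (adjusted p = 0.986). *HUG1* was dim (-6.24 in YΔG/XK/XI, -6.23 in YΔGP/XK/XI), and its change was 0.14 on slide 1 and -0.28 on slide 2. Of 20 genes with a peak at the G1/S transition, 17 rose and 0 fell, with a median of 1.03. The highest were the cyclin genes *CLN1* (2.83, adjusted p = 1.30e-06) and *PCL1* (2.75, adjusted p = 1.83e-06) and the ribonucleotide reductase gene *RNR1* (2.63, adjusted p = 1.12e-06). The study picked 10 of these 20 genes from these same arrays. In RNA from whole cultures, a different share of cells in a cycle phase and a different amount of mRNA per cell cannot be told apart, and the part of cycle phase in the repair gene values was not tested.

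**Figure D3:**
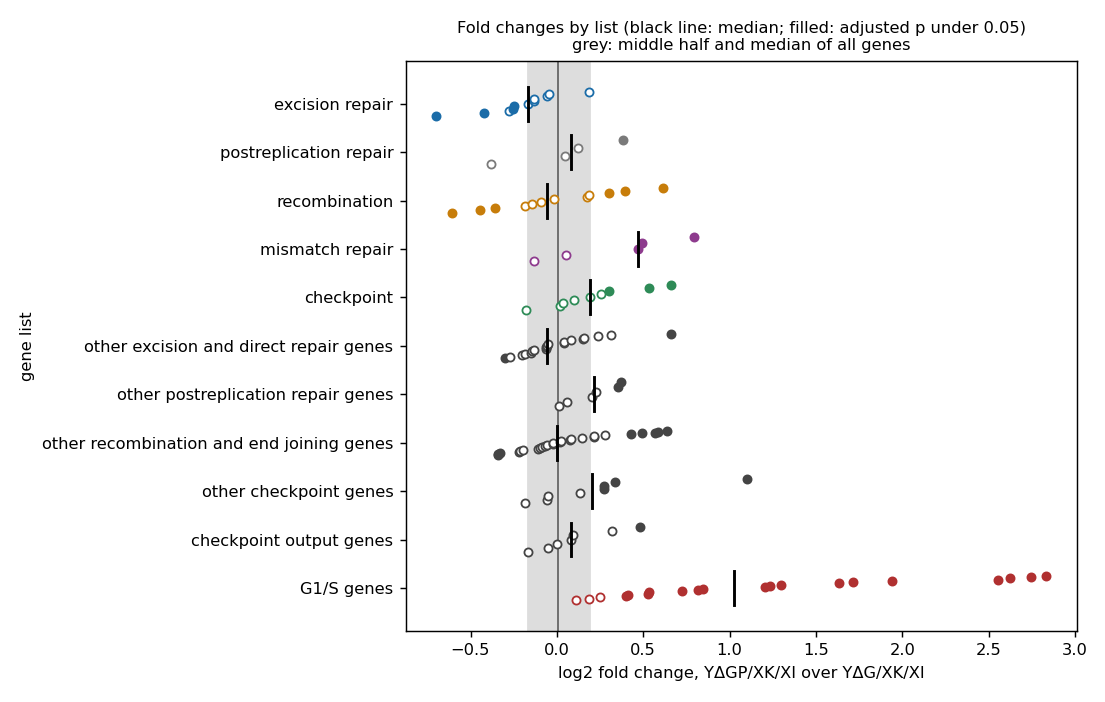
Log2 fold change (YΔGP/XK/XI over YΔG/XK/XI) of each gene in the 5 classes of the 41 genes and in 6 further lists, filled where the adjusted p was under 0.05, with the list median as a black line and the interquartile range of all 6256 genes in grey. The G1/S genes had a median of 1.03, and no class median of the 41 genes was above 0.47. The lists were written with earlier results known, and the study picked 10 of the 20 G1/S genes from these same arrays.

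Genes whose proteins work as partners were set side by side. In 17 pairs, chosen after the values were seen and given without a test, the difference of the 2 log2 signals was taken within each array, which cancels the scaling by a constant. It did not overlap between strains in 9 pairs. The share among other gene pairs was not computed, so this count is not a result about partners. Of single genes on the array, 46.6% did not overlap. *PMS1* exceeded *MLH3* by 0.74 in log2 fold change, *MUS81* exceeded *MMS4* by 0.54, and *RAD1* exceeded *RAD10* by 0.53. *RAD6* was below *RAD18* by a difference of -0.50, and *MEC1* below *RAD53* by a difference of -0.41. In the end-binding nuclease, *XRS2* exceeded *MRE11* by 0.39 and *RAD50* exceeded *MRE11* by 0.26, while *RAD50* differed from *XRS2* by -0.13. In the clamp *RAD17* and *DDC1* differed by 0.08. The other 8 pairs overlapped. Among these, the differences were 0.03 for *MSH3* and *MSH6*, -0.04 for *RAD55* and *RAD57*, 0.16 for *RAD52* and *RAD59*, and 0.13 for *RAD53* and *DUN1*. *RAD4* and *RAD23* differed by 0.11 and *RAD7* and *RAD16* by 0.12. *MEC3* differed from *RAD17* and *DDC1* by no more than 0.06.

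**Figure D4:**
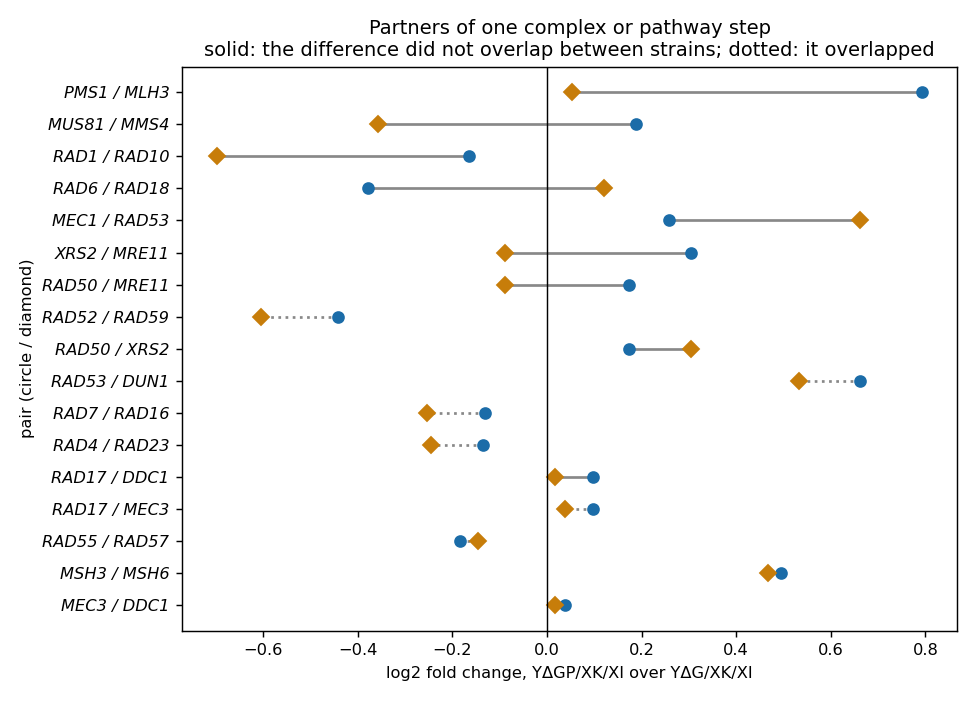
Log2 fold change (YΔGP/XK/XI over YΔG/XK/XI) of the first-named gene (circle) and the second-named gene (diamond) of 17 pairs, joined by a solid line where the within-array difference did not overlap between strains. *PMS1* and *MLH3* are farthest apart (0.74) and *MEC3* and *DDC1* are closest (0.02).

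Length was also compared. Median coding length in the R64 annotation was 2839.5 bp for the 10 higher genes (1542 to 4365 bp), 1200 bp for the 7 lower genes (633 to 2373 bp) and 1989 bp for those not called. The Spearman correlation of length with log2 fold change was 0.592 across the 41 genes and -0.007 across 5756 genes with a length. Genes are not independent replicates, all share the same 6 arrays, and this description was added after the values were seen. Genes of 1896 bp and over, the top length bin when all genes were divided into 4, held 25 of the 41, with 9 of the 10 higher and 2 of the 7 lower genes. In that bin 18.7% of all genes were called higher and 8.70% lower. The part of length in the values was not tested.

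**Figure D5:**
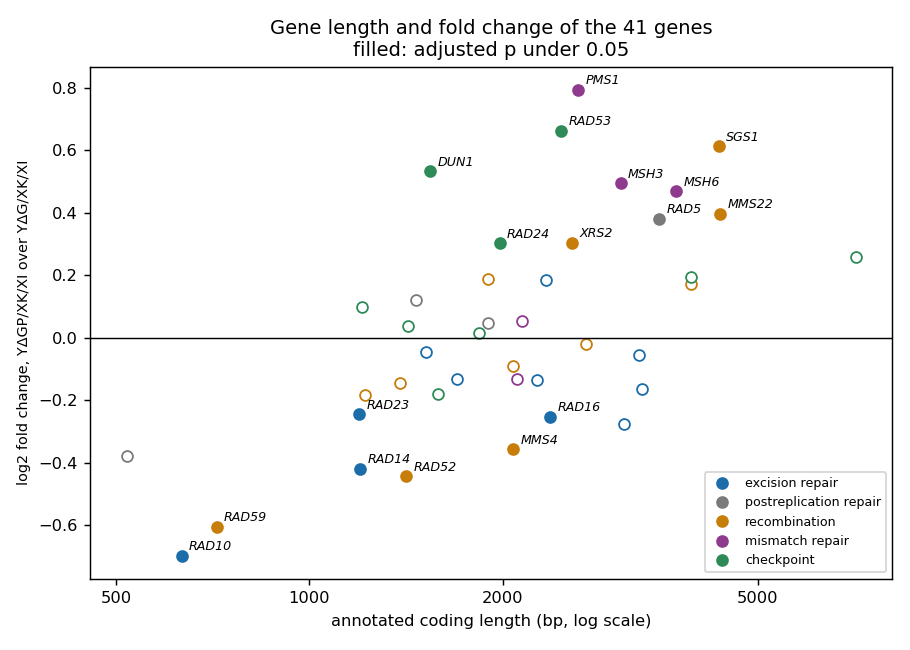
Coding length (bp, log axis) against log2 fold change (YΔGP/XK/XI over YΔG/XK/XI) of the 41 genes, filled where the adjusted p was under 0.05. Genes called higher lie between 1542 and 4365 bp and those called lower between 633 and 2373 bp.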

How the data were processed

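Total RNA taken at 9 h of fermentation, 3 samples per strain, was hybridised in one colour to Agilent arrays. The deposited scanner files hold the processed intensity of each spot, which the authors obtained with Agilent Feature Extraction (10.1.1.1, per the submitters' processing notes), after background subtraction. They also hold deposited flags for outlier, saturated and well above background spots, used as given (other). A deposited table holds log2 values that the authors normalized per chip, with each gene centred on its median over the arrays (column medians -0.0107 to 0.0143). Against the values used here, centred the same way, r was 0.9999 or more, so scale, centring and direction were settled. The build behind the probes is not given in the sources used here, so no coordinates are printed.

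Here, log2 intensity minus the 75th percentile of each array was averaged over the 7 spots of a probe, without control and outlier spots. All 6256 genes were tested with limma (3.58.1, R 4.3.3; lmFit and eBayes), with Benjamini-Hochberg adjustment over all genes and a threshold of 0.05, on 3 against 3 arrays. A probe counted as well above background with 4 spots flagged so. An exact permutation test of 3 against 3 cannot go below p = 0.1 and was not used. The median SE was 0.0878, and the number of arrays limits precision. The 41 genes and the other lists were chosen with earlier results of these data known, and the partner pairs and the gene length description after the values were seen. All 41 genes are named, the called ones with every array. From each other list the called genes are named by size of change, no more than 3 that rose and 3 that fell. Of the checkpoint output genes, those not called are named too. For 5756 genes the name matched the R64 annotation. Cross-hybridisation between related genes was not tested. Alternatives were normexp (offset 50, on median signals), median and quantile scaling, a filter on dim probes, spot medians, keeping outlier spots, an intensity trend, a replicate block, a slide block, the deposited table, no moderation of the variance, and leaving out each array. The code was tested on simulated data. A planned description of promoter motifs was not run, since no promoter sequence was used here.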

Additional observations from a re-analysis of the deposited data

How the results depend on the processing

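Of the 17 called genes, 10 kept their call in all 17 alternatives and 7 lost it in at least 1. The 7 were *RAD14*, *RAD16*, *RAD23*, *RAD52*, *XRS2*, *MMS22* and *RAD24*, and no called gene changed sign. Of the 24 genes not called, 6 gained a call (*RAD2*, *RAD6*, *RAD50*, *RAD55*, *RAD57*, *MEC1*) and 5 changed sign (*RAD30*, *RAD54*, *MLH3*, *DDC1*, *MEC3*) in at least 1. Scaling to the median moved the median log2 fold change of all genes from 0.00916 to -0.0509, and those of excision repair to -0.22, recombination to -0.11, mismatch repair to 0.41, checkpoint to 0.13 and the 41 genes to -0.0438. Quantile normalization gave -0.0187 for postreplication repair, -0.12 for recombination, 0.39 for mismatch repair, 0.15 for checkpoint and -0.0566 for the 41 genes, with 14 of the 17 calls kept under either scaling. Without moderation of the variance 7 of the 41 genes were called higher and 3 lower (*RAD52* lost its call there, adjusted p = 0.0610), and 1215 of all genes were called in place of 1852. Leaving out 1 array gave 7 to 10 genes higher and 4 to 7 lower of the 41, 1178 to 1661 calls over all genes, and medians of 0.12 to 0.23 for checkpoint and 0.40 to 0.52 for mismatch repair. The count of lower genes was 4 without YΔG/XK/XI replicate 1 and without YΔGP/XK/XI replicate 1 or 2, and 1178 of all genes were called without YΔG/XK/XI replicate 1. The cause was not tested beyond the smaller number of arrays. The labels do not say whether replicate numbers pair the samples, and this was not settled. Correlations of deviations between same-numbered arrays were 0.0656, 0.301 and 0.415 for YΔG/XK/XI replicates 1, 2 and 3. Their highest correlations with another number were -0.00194, 0.13 and -0.147. With the replicate block 11 of the 41 genes were called higher and 9 lower, and 3 of 3 YΔG/XK/XI arrays and 2 of 3 YΔGP/XK/XI arrays correlated best with their own number. Of 289 recomputed partner differences 0 moved beyond the spread, and 5 of the 17 pairs, all with overlapping arrays, changed sign in at least 1 alternative. Many of the 289 could not move. Median scaling, the filter on dim probes, the intensity trend, both blocks and no moderation of the variance leave a within-array difference unchanged.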
